A study of Mus musculus with 11 samples.

Results

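The 8 genes Lrat, Rdh16, Dhrs3, Aldh1a1, Aldh1a2, Rarb, Cyp26a1 and Cyp26b1 store vitamin A, turn it into retinoic acid, sense that acid or break it down. They were taken by name from the 19207 genes of the deposited count table, and all 8 were found and passed the filter on low counts. Liver RNA of C57BL/6 mice was sequenced in 11 libraries of 4 groups. Hmgb2-/- liver after carbon tetrachloride (CCl4) is called KO_CCL4 (libraries 24, 25 and 15), Hmgb2-/- liver after oil KO_Oil (11 and 12), wild-type liver after CCl4 WT_CCL4 (4, 5 and 6) and wild-type liver after oil WT_Oil (1, 2 and 3). CCl4 is a solvent that injures hepatocytes around the central vein, and oil is its usual carrier. No source used here gives the part of Hmgb2 that is deleted, the mice's sex or age, how much CCl4 was given and how often, or the time of day at which livers were taken. Whether each library came from its own mouse is not stated. The p-values thus set group differences only against the spread among these samples, and that spread may be technical.

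Most of the body's vitamin A lies in the lipid droplets of hepatic stellate cells as retinyl esters, and stellate cells are known to lose these droplets when they turn into matrix-producing cells in injured liver. Retinol is oxidised to retinal and then to retinoic acid, which binds nuclear receptors of the RAR family on DNA. Cytochrome P450 enzymes of the CYP26 family break retinoic acid down, and their genes are themselves known to be switched on by it.

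Levels are given as CPM, counts scaled by the size of their library. Library totals ran from 7306082 counts (KO_Oil 11) to 14116886 counts (WT_CCL4 4). Hmgb2, the deleted gene, had 0 to 0.951 CPM in the 5 knockout libraries and 1.93 to 7.42 CPM in the 6 wild-type libraries, a difference that passed after CCl4 (adjusted p = 0.0112) and not after oil (adjusted p = 0.115). KO_CCL4 24 and 25 carry the letter E in their titles where all others carry S, and they differ from KO_CCL4 15 in several results below. All sums of marker genes below are over every listed gene in the table. In whole tissue, fewer cells of a type and less RNA per cell cannot be told apart.

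Cyp26a1, which encodes the main retinoic acid hydroxylase of liver, was 12.99-fold higher in KO_CCL4 than in WT_CCL4 livers, with all 3 KO_CCL4 libraries above all others of the series. It was the only one of the 8 genes to pass in that comparison, and also the only one to pass for CCl4 against oil in knockout liver (7.60-fold). In wild-type liver after CCl4 Lrat, which encodes the enzyme that makes retinyl esters, was 1.97-fold higher, while Rdh16, a retinol dehydrogenase, was 2.12-fold lower. No member passed for knockout against wild type after oil, and none passed for the interaction of genotype and CCl4. Called here and below means an adjusted p below 0.05 in edgeR's quasi-likelihood test, with Benjamini-Hochberg adjustment over 16866 tested genes.

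**Figure D1:**
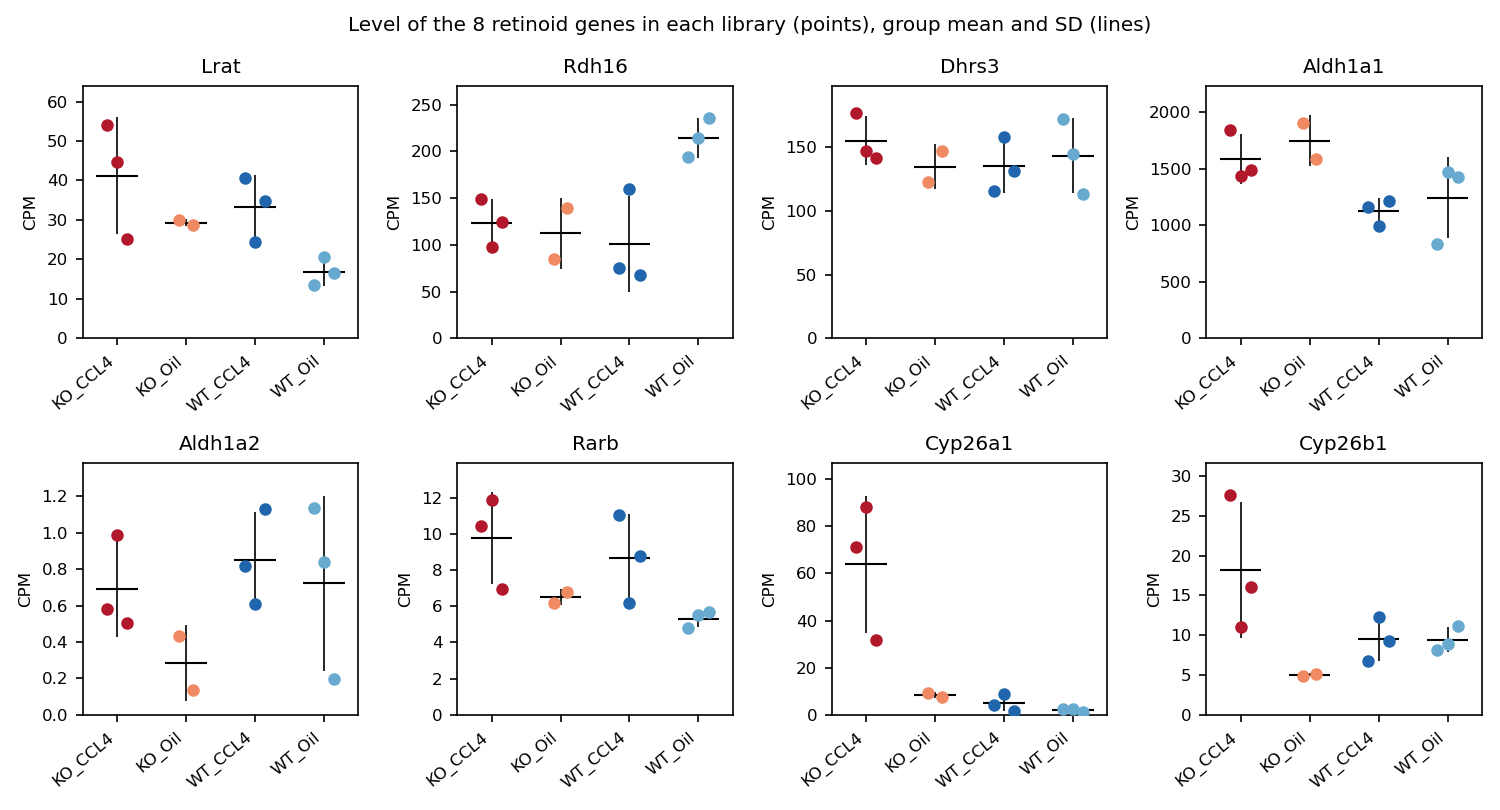
Level of each of the 8 genes in CPM (linear axis from 0) in every library. Points are libraries, the horizontal line is the group mean and the vertical line 1 SD. Cyp26a1 lay between 31.9 and 88.3 CPM in KO_CCL4 and at 9.33 CPM or less in every other library.

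The share of members called can be set beside that of all genes. After CCl4 1 of 8 members was called between the genotypes, where 1.2% of all tested genes were (0.308% higher and 0.889% lower). For CCl4 against oil, 1 of 8 was called in knockout liver against 0.652% of all genes (0.332% higher and 0.32% lower). In wild-type liver 2 of 8 were called, 1 higher and 1 lower, against 8.48% of all genes (6.98% higher and 1.51% lower). After oil 0 of 8 members were called between the genotypes by edgeR (4.11% of all genes, 2.19% higher and 1.92% lower). There 4 members, Cyp26a1, Cyp26b1, Lrat and Rdh16, had an unadjusted p under 0.05, as did 3368 of all 16866 genes. DESeq2 called 1 member and 1297 genes in all. For the interaction 0 of 8 were called by edgeR (0.101% of all genes, 0.0593% higher and 0.0415% lower). An unadjusted p under 0.05 was found there for 2, Cyp26b1 and Rdh16, and for 2318 of all genes. DESeq2 called 1 member and 372 genes in all. For the lists below, the genes of all 16866 with an unadjusted p under 0.05 numbered 3906 for CCl4 in wild-type liver. They numbered 2199 for CCl4 in knockout liver and 2818 between the genotypes after CCl4. Members whose groups did not overlap numbered 2 of 8 (Cyp26a1 and Aldh1a1, all higher in the knockout) after CCl4, against 20.7% of all genes (9.24% all higher). After oil they numbered 6 of 8, against 38.9% of all genes, with Cyp26a1, Lrat, Rarb and Aldh1a1 higher and Cyp26b1 and Rdh16 lower in the knockout. For CCl4 against oil they numbered 4 of 8 in knockout liver, against 29.6%, and 3 of 8 in wild-type liver, against 28.8% of all genes.

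Per kilobase of gene length, Aldh1a1 stood far above the others in every group and Aldh1a2 below them. In WT_Oil the mean levels per kilobase were 607 ± 175 CPM for Aldh1a1, 49.0 ± 10.02 CPM for Dhrs3, 34.5 ± 3.43 CPM for Rdh16, 3.14 ± 0.66 CPM for Lrat, 1.76 ± 0.29 CPM for Cyp26b1, 1.75 ± 0.15 CPM for Rarb, 1.06 ± 0.39 CPM for Cyp26a1 and 0.319 ± 0.212 CPM for Aldh1a2 (SD, n = 3). In KO_CCL4 Cyp26a1 had 36.0 ± 16.3 CPM per kilobase, beside 19.9 ± 4.14 CPM for Rdh16 and 53.0 ± 6.54 CPM for Dhrs3. Its relative Cyp26b1 had 3.41 ± 1.59 CPM per kilobase there.

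The stretch around the start site is shown for Cyp26a1 and Rarb, because theirs are the only windows among the 8 genes that hold a direct repeat of the kind that RAR is known to bind. Each window runs from 250 bases before to 50 bases from the start on, 5′ to 3′ on the gene's strand, from RefSeq on GRCm38.p6, and all 8 genes had 1 or more windows (11 in all). The repeat searched, called DR5, is a pair of hexamers (AGGTCA, or AGTTCA, or GGGTCA, or GGTTCA, in any combination) with 5 bases between them, on either strand. Capitals mark DR5 and, in Cyp26a1, the letters TATAAA, which do not overlap it. This TATAAA lies after the annotated start, at bases 30 to 35 counted from it.

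Cyp26a1, chr19:37697558-37697857, plus strand: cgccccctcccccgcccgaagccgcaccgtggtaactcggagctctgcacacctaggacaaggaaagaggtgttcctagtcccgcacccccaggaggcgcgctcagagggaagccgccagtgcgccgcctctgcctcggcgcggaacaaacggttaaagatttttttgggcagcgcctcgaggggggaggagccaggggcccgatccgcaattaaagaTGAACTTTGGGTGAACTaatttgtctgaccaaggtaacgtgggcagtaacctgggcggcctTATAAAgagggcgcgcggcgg

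Rarb, chr14:16575427-16575726, minus strand: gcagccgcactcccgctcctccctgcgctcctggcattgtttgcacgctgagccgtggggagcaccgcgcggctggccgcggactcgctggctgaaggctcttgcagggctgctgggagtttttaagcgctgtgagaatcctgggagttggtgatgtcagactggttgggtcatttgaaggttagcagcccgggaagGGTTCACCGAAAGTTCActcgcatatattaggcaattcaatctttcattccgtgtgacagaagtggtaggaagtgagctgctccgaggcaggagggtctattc

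Read on the strand that carries the motif, the 2 repeats are as follows, and the capitals are the whole match.

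Cyp26a1, DR5: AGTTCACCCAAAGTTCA

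Rarb, DR5: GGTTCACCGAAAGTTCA

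Both end in the hexamer AGTTCA. The Cyp26a1 repeat lies on the strand opposite to the gene, from 32 to 16 bases before the start, and that of Rarb on the gene's own strand, from 53 to 37 bases before it. DR5 is found in 0.0975% of the 32817 windows that the RefSeq set holds. TATAAA on either strand is found in 13.6% of all windows, and among the members also in those of Cyp26b1 and Rdh16. The windows of the other 6 members hold no DR5, which says only that these letters are not in this stretch.

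Lrat encodes lecithin retinol acyltransferase, which makes retinyl esters for storage, in liver chiefly in stellate cells (ENSMUSG00000028003, chromosome 3, 82892579 to 82903973 on the minus strand of mm10). It had 54.0, 44.7 and 25.1 CPM in KO_CCL4 24, 25 and 15 and 29.9 and 28.7 CPM in KO_Oil. In WT_CCL4 it had 40.6, 24.3 and 34.8 CPM and in WT_Oil 13.5, 20.5 and 16.5 CPM. All 3 WT_CCL4 libraries thus lay above all WT_Oil libraries, while the KO_CCL4 libraries lay on both sides of KO_Oil. The means were 33.2 ± 8.21 CPM in WT_CCL4 and 16.8 ± 3.51 CPM in WT_Oil (SD, n = 3 each), a log2 fold change of 0.98 that passed (SE 0.27, adjusted p = 0.0431, higher in 3 of 3 libraries). The call was near the threshold and was lost without any 1 of WT_Oil 1, 2 or 3, WT_CCL4 4 or 6, or KO_Oil 11 or 12 (adjusted p up to 0.178), with log2 fold changes from 0.81 to 1.15, and also under a stricter filter (0.0530) and limma-voom (0.0620). The antisense gene Rbm46os spans all of Lrat on the other strand in GENCODE, so that reads of both may be mixed if the counting did not use strand. In the authors' deposited table the log2 ratio was 0.93 with a DESeq2 adjusted p of 0.00454. In knockout liver the log2 fold change of Lrat for CCl4 against oil was 0.50 (SE 0.30, adjusted p = 0.537), and -0.22 without KO_CCL4 24 and 25. The difference between the genotypes in this response was not called (interaction -0.48, SE 0.40, adjusted p = 0.656). After oil all KO_Oil libraries lay above all WT_Oil libraries for Lrat, but the difference of 0.79 on the log2 scale missed the threshold (SE 0.30, adjusted p = 0.161).

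Many other stellate cell genes were also higher after CCl4 in wild-type liver. Of 20 tested stellate markers 8 rose and 2 fell, where 6.98% of all genes rose and 1.51% fell. Their median log2 fold change was 0.62, and that of all tested genes -0.02. Their summed level was 1004 to 1241 CPM in WT_CCL4 and 779 to 807 CPM in WT_Oil. Reln, which encodes the secreted protein reelin, had 291 ± 38.1 CPM in WT_CCL4 and 162 ± 2.91 CPM in WT_Oil (adjusted p = 0.0162). Des, which encodes desmin, had 8.03 ± 0.49 and 3.27 ± 0.93 CPM in these groups (adjusted p = 0.0159). In knockout liver 0 of the 20 were called by edgeR (7 had an unadjusted p under 0.05), with a summed level of 959 to 1002 CPM in KO_CCL4 and 805 to 807 CPM in KO_Oil and a median of 0.29. Between the genotypes after oil 0 of the 20 stellate markers were called by edgeR (1 had an unadjusted p under 0.05), with a median of -0.09. Lrat was higher in every KO_Oil than in every WT_Oil library there. Genes of activated fibroblasts summed to 597 to 2300 CPM in WT_CCL4 and 109 to 189 CPM in WT_Oil. The part that these cells have in the Lrat values was not tested.

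Rdh16 encodes a retinol dehydrogenase of hepatocytes that also acts on steroids (ENSMUSG00000069456, chromosome 10, 127801152 to 127846565, plus strand). It had 149, 97.2 and 125 CPM in KO_CCL4 24, 25 and 15 and 85.0 and 139 CPM in KO_Oil. It had 75.6, 160 and 67.3 CPM in WT_CCL4 4, 5 and 6 and 194, 214 and 236 CPM in WT_Oil. WT_Oil was thus the highest group, with no overlap with any other. WT_CCL4 5 stood apart from WT_CCL4 4 and 6, and it was also the highest of the 3 in the summed level of 17 pericentral hepatocyte genes (8581 CPM, beside 5278 and 5654 CPM) and of periportal genes (27530 CPM, beside 15430 and 15590 CPM). It was the lowest of the 3 in activated fibroblast genes (597 CPM, beside 1829 and 2300 CPM). The mean was 101 ± 51.4 CPM in WT_CCL4 and 215 ± 21.3 CPM in WT_Oil (n = 3 each), a log2 fold change of -1.09 that passed (SE 0.31, adjusted p = 0.0462, lower in 3 of 3 libraries). The call was lost without any 1 of WT_Oil 1, 2 or 3, WT_CCL4 4 or 6, KO_Oil 11 or 12, or KO_CCL4 24 (adjusted p up to 0.203), without KO_CCL4 24 and 25 together, and in 3 other settings (upper quartile scaling, the stricter filter and a fit to only the groups compared, 0.0521 to 0.0747). Without WT_CCL4 5 the log2 fold change was -1.58 (adjusted p = 0.00185).

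Genes known to differ between male and female liver also moved with CCl4. In wild-type liver, where Lrat and Rdh16 were called, 7 of 14 genes known as higher in males fell and none had a positive log2 fold change (median -2.31), while 6 of 10 known as higher in females rose (median 1.77). In the knockout 4 of 14 of the first list fell, again with none positive (median -1.48), and 2 of 10 of the other rose (median 0.97). Their part in the CCl4 values of the 8 genes was not tested.

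In knockout liver Rdh16 had a log2 fold change of 0.14 for CCl4 against oil (SE 0.34, adjusted p = 0.924). After oil the knockout libraries all lay below the wild-type ones (log2 fold change -0.93, SE 0.35), and this difference did not pass (adjusted p = 0.154) except without WT_CCL4 5, alone or with WT_Oil 1 (0.0458 and 0.0484). The interaction was 1.22 (SE 0.46, adjusted p = 0.265), but 1.72 and called without WT_CCL4 5 (adjusted p = 0.0313). The gene model overlaps the pseudogene Rdh18-ps on the same strand, and a cluster of similar genes lies beside it, so reads may be shared. The similar genes Rdh9, Rdh16f1 and Rdh7 were not called in any comparison. Rdh9 had 120 ± 16.0 CPM in WT_CCL4 and 88.0 ± 19.3 CPM in WT_Oil, and Rdh7 had 806 ± 156 CPM in WT_CCL4 and 1119 ± 99.7 CPM in WT_Oil.

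Dhrs3 encodes an enzyme that turns retinal back into retinol, and is itself known to be induced by retinoic acid (ENSMUSG00000066026, chromosome 4, 144892827 to 144928209, plus strand). It had 141 to 177 CPM in KO_CCL4, 123 and 147 CPM in KO_Oil, 116 to 158 CPM in WT_CCL4 and 113 to 172 CPM in WT_Oil, so that all groups overlapped. Its log2 fold changes between groups ran from -0.09 (SE 0.21) for knockout against wild type after oil to 0.20 (SE 0.21) for CCl4 against oil in the knockout, with adjusted p from 0.646 to 0.867. In no comparison did the Dhrs3 groups separate.

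Aldh1a1 and Aldh1a2 encode retinal dehydrogenases, which make retinoic acid. Aldh1a1 is abundant in hepatocytes (ENSMUSG00000053279, chromosome 19, 20601961 to 20643462, plus strand). It had 1843, 1434 and 1494 CPM in KO_CCL4 and 1908 and 1588 CPM in KO_Oil, against 1167, 991 and 1220 CPM in WT_CCL4 and 832, 1474 and 1431 CPM in WT_Oil. The knockout libraries were all above the wild-type ones within each treatment. The log2 fold changes were 0.50 after CCl4 (SE 0.23, adjusted p = 0.297) and 0.49 after oil (SE 0.25, adjusted p = 0.310), and neither passed. The CCl4 comparisons gave -0.14 (SE 0.25) in the knockout and -0.15 (SE 0.23) in wild type. Its close relative Aldh1a7, with which reads may be shared, had 226 ± 75.7 CPM in KO_CCL4, 201 ± 32.6 CPM in KO_Oil, 159 ± 21.3 CPM in WT_CCL4 and 144 ± 12.9 CPM in WT_Oil and was not called.

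Aldh1a2, a retinal dehydrogenase of embryonic tissue and of mesothelium, was near the limit of detection (ENSMUSG00000013584, chromosome 9, 71215789 to 71296243, plus strand). It had 6, 12 and 5 counts in KO_CCL4, 3 and 1 counts in KO_Oil, 13, 7 and 12 counts in WT_CCL4 and 10, 11 and 2 counts in WT_Oil. In CPM the KO_CCL4 libraries (0.503 to 0.989) all lay above the KO_Oil libraries (0.431 and 0.136). That difference did not pass (adjusted p = 0.574), and none of the other comparisons of Aldh1a2 did (adjusted p from 0.420 to 0.857), so no difference was detectable at this depth. Of 14 tested mesothelial markers 14 had a positive log2 fold change for CCl4 against oil in the knockout, with a median of 1.75 and 1 called, where the median of all genes was 0.02. Their summed level was 190 to 261 CPM in KO_CCL4, 174 and 175 CPM in KO_Oil, 196 to 217 CPM in WT_CCL4 and 239 to 320 CPM in WT_Oil. None of the defining markers was at 0 in KO_CCL4 or KO_Oil. Wt1, a mesothelial transcription factor gene, had 2.76 ± 0.51 CPM in KO_CCL4 and 0.706 ± 0.422 CPM in KO_Oil, and Msln, which encodes mesothelin, had 5.10 ± 0.98 and 1.34 ± 0.74 CPM. Both genes thus made up little of the mesothelial sum. The part of mesothelial genes in the Aldh1a2 counts was not tested.

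Rarb encodes retinoic acid receptor beta, whose gene is a known target of retinoic acid (ENSMUSG00000017491, chromosome 14, 16430842 to 16575472, minus strand). It had 10.5, 11.9 and 6.94 CPM in KO_CCL4 24, 25 and 15 and 6.17 and 6.80 CPM in KO_Oil. In WT_CCL4 it had 11.1, 6.20 and 8.76 CPM and in WT_Oil 4.77, 5.49 and 5.65 CPM. The CCl4 libraries lay above the oil libraries in each genotype, by a small margin for KO_CCL4 15 and WT_CCL4 5. The log2 fold changes for CCl4 were 0.59 in the knockout (SE 0.29, adjusted p = 0.423) and 0.71 in wild type (SE 0.25, adjusted p = 0.108), and neither passed. Without WT_CCL4 5 the wild-type value was 0.90 and passed (adjusted p = 0.0316). Between the genotypes Rarb differed by 0.17 after CCl4 (SE 0.25) and 0.29 after oil (SE 0.30). Its 3′ end overlaps Top2b on the other strand, and no source used here says if the counting was stranded, so reads of the 2 genes may be mixed.

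**Figure D2:**
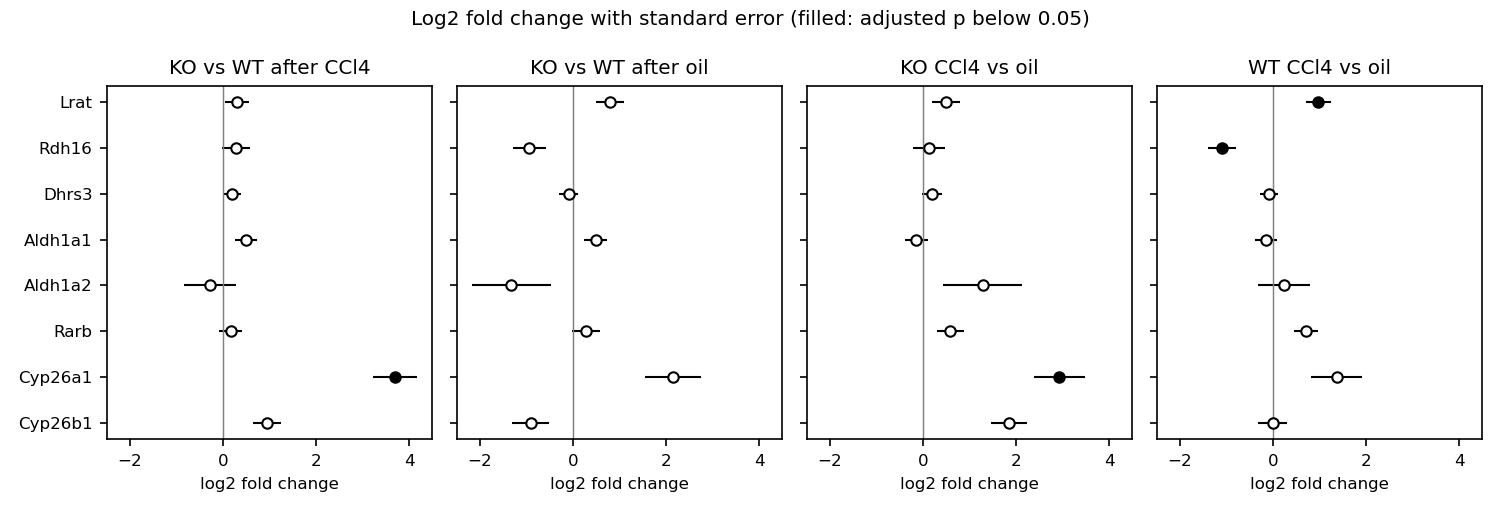
Log2 fold change (horizontal axis) of each gene in 4 comparisons, with its standard error. Filled points passed at an adjusted p below 0.05 (edgeR): Cyp26a1 at 3.70 and 2.93, Lrat at 0.98 and Rdh16 at -1.09.

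Cyp26a1 is the liver's principal enzyme of retinoic acid breakdown, found mainly in hepatocytes near the central vein (ENSMUSG00000024987, chromosome 19, 37697808 to 37701528, plus strand). It had 71.3, 88.3 and 31.9 CPM in KO_CCL4 24, 25 and 15 and 9.33 and 7.48 CPM in KO_Oil. In WT_CCL4 it had 4.28, 8.64 and 1.79 CPM and in WT_Oil 2.27, 2.29 and 1.07 CPM. KO_CCL4 lay above every other library and KO_Oil above every WT_Oil library, while WT_CCL4 overlapped with both oil groups. The order of the group means was KO_CCL4 (63.8 ± 28.9 CPM, n = 3), KO_Oil (8.40 ± 1.31, n = 2), WT_CCL4 (4.90 ± 3.47, n = 3) and WT_Oil (1.88 ± 0.70, n = 3). Neighbours below the first did not differ beyond their spread. In the authors' deposited table KO_Oil was 0.70 above WT_CCL4 on the log2 scale (adjusted p = 0.409).

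For knockout against wild type after CCl4 the log2 fold change of Cyp26a1 was 3.70 (SE 0.48, adjusted p = 0.00549, higher in 3 of 3 libraries). It was called in 19 of 20 alternative settings, with values from 2.72 to 4.34. The exception was the fit without KO_CCL4 24 and 25, where KO_CCL4 15 alone was set against wild type (2.72, adjusted p = 0.0808). For CCl4 against oil in the knockout it was 2.93 (SE 0.55, adjusted p = 0.0359). This call was lost in 10 of 20 settings, among them those without KO_Oil 11 or 12 (adjusted p = 0.269 and 0.220), without KO_CCL4 24 or 25 (0.103 and 0.0606), without both of these together (1.93, adjusted p = 0.232), and without WT_Oil 2 or 3 or WT_CCL4 4 (0.0522 to 0.0570). Limma-voom and a fit to only the groups compared also missed it (0.0631 and 0.0543). The authors' deposited table gives log2 ratios of 3.21 after CCl4 between the genotypes and 2.51 for CCl4 in the knockout (DESeq2 adjusted p = 6.55e-09 and 0.000177).

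After oil the knockout had a log2 fold change of 2.15 for Cyp26a1 over wild type (SE 0.60), 4.43-fold, which did not pass here (adjusted p = 0.0646). It did pass in 6 of 20 alternative settings, among them those without WT_CCL4 5, WT_CCL4 6 or KO_CCL4 15 and DESeq2 (adjusted p = 0.00405). The authors' deposited table has an adjusted p of 0.0143 for it, at a log2 ratio of 1.78. In wild-type liver CCl4 against oil gave 1.37 (SE 0.55, adjusted p = 0.152) with overlapping groups. Without WT_CCL4 5 the value was 0.73. That library stood apart from its group in pericentral, periportal and fibroblast sums, as given for Rdh16. The responses of the 2 genotypes to CCl4 were not shown to differ (interaction 1.55, SE 0.77, adjusted p = 0.400).

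Pericentral markers were, like Cyp26a1, on the higher side in the knockout between the genotypes after CCl4. Of 17 tested, 3 rose and none fell in the knockout, 14 had a positive log2 fold change and the median was 0.67. The summed level was 10670 to 13070 CPM in KO_CCL4 and 5278 to 8581 CPM in WT_CCL4. Within KO_CCL4 the order was opposite to that of Cyp26a1. Library 15 had the highest sum and the lowest Cyp26a1, and library 25 the lowest sum and the highest Cyp26a1. Rhbg, which encodes an ammonia transporter, had 19.7 ± 4.39 CPM in KO_CCL4 and 2.73 ± 1.57 CPM in WT_CCL4 (adjusted p = 0.00251). Glul, which encodes glutamine synthetase, had 818 ± 129 and 178 ± 61.3 CPM (adjusted p = 0.00309), and Lgr5, a WNT pathway receptor gene, had 11.2 ± 1.82 and 5.37 ± 1.20 CPM (adjusted p = 0.0357). Pericentral sums were higher still after oil, at 16330 and 17980 CPM in KO_Oil and 14980 to 18920 CPM in WT_Oil, where Cyp26a1 was low. In the knockout CCl4 against oil gave 0 edgeR calls among the 17 (4 with an unadjusted p under 0.05) and a median of -0.43. Genes of activated fibroblasts and of macrophages were on the lower side in the knockout in the same comparison. Of 14 tested fibroblast genes 1 fell and none had a positive log2 fold change (12 with an unadjusted p under 0.05, median -1.07), and the sum was 228 to 533 CPM in KO_CCL4 and 597 to 2300 CPM in WT_CCL4. The gene that fell was Mmp2, which encodes a matrix metalloproteinase, with 16.6 ± 2.52 CPM in KO_CCL4 and 36.5 ± 6.33 CPM in WT_CCL4 (adjusted p = 0.0179). Of 14 tested Kupffer cell and macrophage genes 3 fell (Cd68, Lgals3 and Trem2, adjusted p = 0.0330, 0.0299 and 0.0299) and none had a positive log2 fold change (median -0.81). Their sum was 376 to 654 CPM in KO_CCL4 and 788 to 1111 CPM in WT_CCL4. A list of pancreas, adipose tissue and muscle genes summed to 3904, 3005 and 571 CPM in KO_CCL4 24, 25 and 15 and to 527 to 1005 CPM in WT_CCL4. Of its 8 tested genes 0 were called by edgeR between the genotypes after CCl4, and 4 had an unadjusted p under 0.05. A positive log2 fold change was found for 6, and the median was 1.28, beside -0.002 for all genes. The mean log2 CPM of the 8 genes was 2.87, 2.68 and 1.67 in KO_CCL4 24, 25 and 15. In WT_CCL4 4, 5 and 6 it was 1.78, 1.53 and 1.67. A few abundant genes thus carry the sum. How much of these tissues the samples held was not tested. The sum was highest in the KO_CCL4 libraries with the highest Cyp26a1, and was 2137 to 2219 CPM in KO_Oil, where Cyp26a1 was low. The part of these lists in the Cyp26a1 difference was not tested.

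The libraries also differed in time-of-day genes. Of 20 clock genes 12 were higher and 2 lower in KO_Oil than in WT_Oil, where 2.19% and 1.92% of all genes were. Their summed level was 1407 and 1452 CPM in KO_Oil and 628 to 808 CPM in WT_Oil. The sum was 880 to 1249 CPM in KO_CCL4 and 750 to 815 CPM in WT_CCL4, with no overlap. In that comparison 0 of the 20 were called by edgeR and 7 had an unadjusted p under 0.05 (2818 of all 16866 genes). For CCl4 against oil 2 clock genes were called higher and 3 lower in the knockout (0.332% and 0.32% of all genes). In wild type 2 were higher and 0 lower, close to the shares of all genes (6.98% and 1.51%), and the sums overlapped. The part of clock genes in the values above was not tested.

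**Figure D3:**
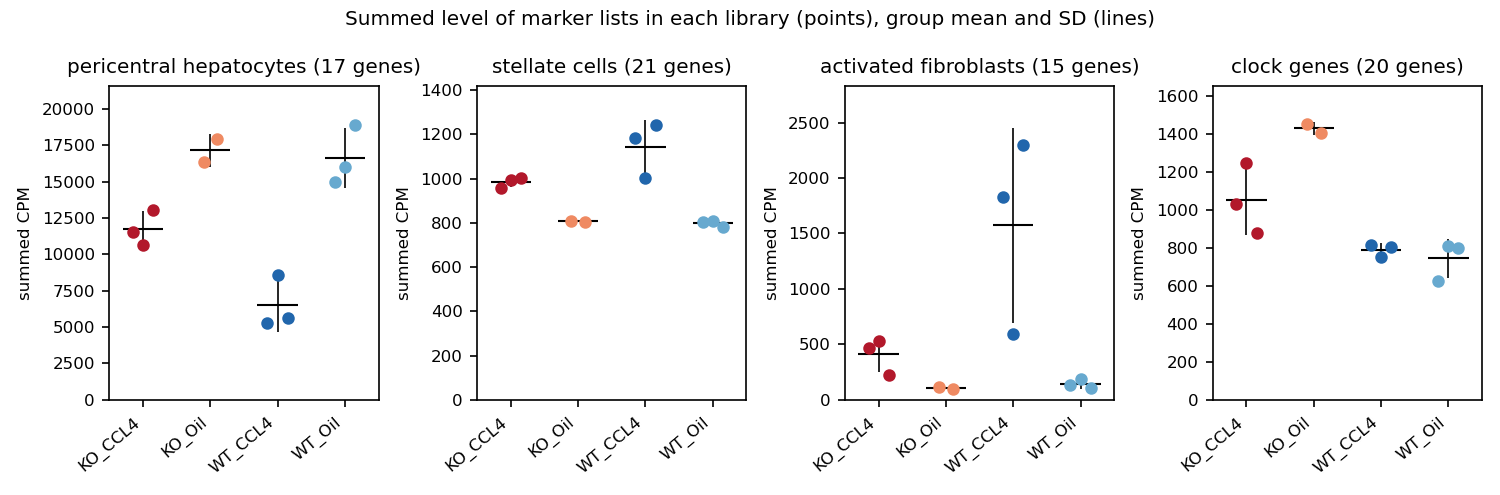
Summed level in CPM (linear axis from 0) of 4 marker lists in every library, with group mean and 1 SD. Pericentral sums were 10670 to 13070 CPM in KO_CCL4 and 5278 to 8581 CPM in WT_CCL4, and clock sums were highest in KO_Oil.

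Cyp26b1 encodes a retinoic acid hydroxylase of the same family that in liver is found outside hepatocytes, mainly in stellate cells (ENSMUSG00000063415, chromosome 6, 84571414 to 84593908, minus strand). It had 27.7, 11.04 and 16.0 CPM in KO_CCL4 24, 25 and 15 and 4.88 and 5.16 CPM in KO_Oil. In WT_CCL4 it had 6.79, 12.3 and 9.32 CPM and in WT_Oil 8.17, 8.92 and 11.2 CPM. KO_Oil lay below every other library and KO_CCL4 24 far above the rest. For CCl4 against oil in the knockout the log2 fold change was 1.85 (SE 0.39), just short of the threshold (adjusted p = 0.0550), and 7 of 20 alternative settings called it, among them those without WT_CCL4 5, KO_CCL4 25 or KO_CCL4 15. Over all 20 the adjusted p ran from 0.000746 to 0.342. In wild type it was -0.0017 (SE 0.31, adjusted p = 0.998), a value whose sign changed with the setting. The interaction, 1.86 (SE 0.49, adjusted p = 0.149), was called by DESeq2 (adjusted p = 0.0278) and without KO_CCL4 25 (2.12, adjusted p = 0.0449). Between the genotypes the log2 fold changes were 0.95 after CCl4 (SE 0.31, adjusted p = 0.145) and -0.91 after oil (SE 0.39, adjusted p = 0.213). The libraries in which Cyp26a1 and Cyp26b1 were highest were not the same, since KO_CCL4 25 led for Cyp26a1 and was the lowest KO_CCL4 library for Cyp26b1.

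Genes with a profile like that of a called member were sought among 12535 genes with a mean of at least 1 CPM, by the mean absolute difference of centred log2 CPM over the 11 libraries, which share their libraries and depth. For Cyp26a1 the nearest was Hamp2, a hepcidin gene (0.599 on the log2 scale), followed by Fasn, which encodes fatty acid synthase (0.897), and Thrsp, a lipogenic gene (0.974). Hamp2 had 74.5 ± 23.6 CPM in KO_CCL4, 18.9 ± 3.10 CPM in KO_Oil, 17.9 ± 4.94 CPM in WT_CCL4 and 3.54 ± 0.69 CPM in WT_Oil. For Lrat the nearest were Serpinb8 (0.152), Prrg1 (0.168) and Rarb (0.184), so that 1 of the 8 genes was itself among them. For Rdh16 they were Wrnip1 (0.185), Arel1 (0.237) and Fam89a (0.238).

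Other genes of vitamin A handling were followed through 6 lists with 78 genes in the table, of which 76 were tested. In wild-type liver 5 of 76 rose after CCl4 and 1 fell, close to the shares of all tested genes (6.98% higher and 1.51% lower). The median log2 fold change was -0.05 beside -0.02 for all genes. Lpl, a lipase that can release retinol from lipoproteins, had 107 ± 40.9 CPM in WT_CCL4 and 22.1 ± 5.22 CPM in WT_Oil (adjusted p = 0.00226). Bco1, which cleaves beta-carotene into retinal, had 12.1 ± 4.76 and 5.45 ± 0.80 CPM (adjusted p = 0.0409). Among genes that can clear retinoids Cyp1b1 and Cyp3a11, which encode cytochrome P450 enzymes, had log2 fold changes of 1.56 and 1.09 (adjusted p = 0.0212 and 0.0234), and the glucuronosyltransferase gene Ugt2b1 fell by 0.97 (adjusted p = 0.0322). Of 24 other redox genes and 12 receptors and cofactors 0 were called by edgeR in this comparison, while 4 and 2 of them had an unadjusted p under 0.05.

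In knockout liver 0 of 76 were called by edgeR for CCl4 against oil, where 0.652% of all genes were, with a median of 0.11. An unadjusted p under 0.05 was found for 15 (2199 of all 16866 genes), and DESeq2 called 4 (390 of all genes). After CCl4 1 of 76 was called between the genotypes, where 1.2% of all genes were. It was Bco2, a carotenoid-cleaving oxygenase of mitochondria, with 24.7 ± 2.34 CPM in KO_CCL4 and 12.2 ± 1.67 CPM in WT_CCL4 (adjusted p = 0.0179).

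After oil 3 of 76 were higher and 3 lower in the knockout, where 2.19% and 1.92% of all genes were, with a median of 0.05. Ces1g and Aadac, which encode lipid esterases, had log2 fold changes of 1.07 and 0.67 (adjusted p = 0.0450 and 0.0457). Lipa, the lysosomal acid lipase, fell by 0.80 (adjusted p = 0.0387). The list of genes known to be induced by retinoic acid held Fgf21 and Pdk4, both also known as fasting genes, and both were lower. Fgf21 had 0.283 ± 0.208 CPM in KO_Oil and 16.6 ± 2.88 CPM in WT_Oil (adjusted p = 0.0310) and Pdk4 2.38 ± 0.29 and 11.9 ± 5.97 CPM (adjusted p = 0.0312). Of the 12 tested genes of that list 0 were called by edgeR after CCl4 between the genotypes, with an unadjusted p under 0.05 for 2, in the comparison in which Cyp26a1 was 12.99-fold higher. Tgm2, which encodes the transglutaminase that is a known retinoic acid target, had 164 ± 41.4 CPM in KO_CCL4, 117 ± 4.46 CPM in KO_Oil, 157 ± 11.1 CPM in WT_CCL4 and 138 ± 14.4 CPM in WT_Oil.

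**Figure D4:**
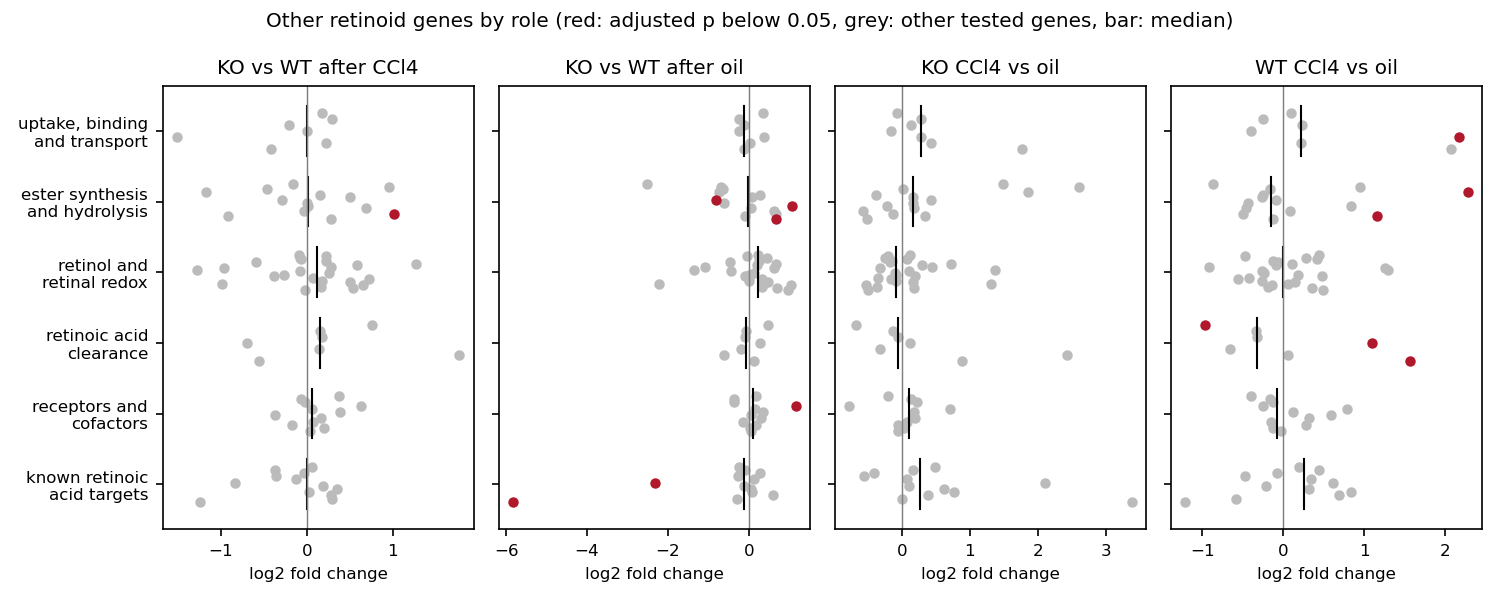
Log2 fold change (horizontal axis, its own scale in each panel) of the 76 other tested retinoid genes by role. Red points passed at an adjusted p below 0.05 (edgeR), grey points did not, and bars are medians; 1 gene passed between the genotypes after CCl4, 6 after oil, 0 for CCl4 in knockout and 6 for CCl4 in wild-type liver.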

How the data were processed

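RNA of mouse liver was measured in 11 libraries, with groups taken from the sample titles. A kit for stranded total RNA is named per the labels' protocols, while the series' design text speaks of capped RNA. Builds mm10 and GRCm38 and the tools DESeq2 and Bowtie are named, with no version, per the submitters' processing notes.

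Raw counts per gene were deposited, per the file headers (alignments overlapping a gene by at least 1 base, pairs counted once). The FPKM values deposited beside them were used only to check signs. The authors' deposited log2 ratios were copied with their sign turned, so that positive means higher in knockout or CCl4, and their deposited score, a phred-scaled adjusted p, was turned into that p-value. The table's starts are 1 base below GENCODE's for 16059 of 16689 genes with the same end, so 1 was added.

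The tests used edgeR 4.0.16 under R 4.3.3 on the counts (quasi-likelihood, TMM scaling, filterByExpr by group with a minimum count of 10), with all 11 libraries in 1 fit of 4 group means. This kept 16866 of 19207 genes. The standard error is the log2 fold change over the square root of F. CPM are counts scaled by the TMM-adjusted library size. The fit was tested on simulated data.

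Alternatives were RLE and upper quartile scaling, dropping the low-count filter or raising it to a mean of 5 CPM, DESeq2 1.42.0, limma-voom (limma 3.58.1), a fit to only the groups compared, leaving out each library in turn, KO_CCL4 24 and 25 left out, and, added after seeing the data, WT_Oil 1 and WT_CCL4 5 left out. A group left with 1 library was assumed to vary like the others. Named were all members, up to 6 called genes of the other retinoid lists per comparison, up to 3 called markers per list and some defining markers, and the 3 genes most like each called member. Rdh7, Rdh9, Rdh16f1, Aldh1a7 and Tgm2 were chosen after their values were seen. Members and lists were chosen with earlier results of these data known, and the 4 comparisons share groups. Some called genes of the other retinoid lists are counted but not reported here by name.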

Additional observations from a re-analysis of the deposited data

How the results depend on the processing

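No paired analysis was possible because the groups share no replicate number. Counts of members called, as reported 2 (wild-type CCl4 against oil), 1 (knockout CCl4 against oil), 0 (knockout against wild type after oil), 1 (after CCl4) and 0 (interaction), ran from 0 to 3, 0 to 2, 0 to 2, 1 to 1 and 0 to 1 when 1 library was left out. The same ranges were 2 to 9, 0 to 2, 0 to 9, 0 to 7 and 0 to 1 for the other retinoid genes and 469 to 2245, 11 to 374, 18 to 1154, 14 to 625 and 0 to 285 for all genes.

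With upper quartile scaling 1 member was called for CCl4 in wild type and 2 in the knockout, and without a filter 2 in the knockout. The stricter filter gave 0 members for CCl4 in wild type, with 766 genes there and 110 between the genotypes after CCl4. DESeq2 gave 2, 4 and 390 (members, other retinoid genes, all genes) for CCl4 in the knockout, 1 member and 1297 genes after oil, 6 other retinoid genes and 723 genes after CCl4, and 1 member and 372 genes for the interaction. With limma-voom 1 member was called for CCl4 in wild type, 0 members and 55 genes in the knockout, and 104 genes after CCl4. With only the groups compared it was 1 member in wild type, 0 members, 1 other gene and 48 genes in the knockout, 1 member after oil, and 0 other genes and 31 genes after CCl4. Without KO_CCL4 24 and 25 it was 1 member in wild type, 0 members and 1 other gene in the knockout, 1 member after oil, 0 members, 0 other genes and 42 genes after CCl4, and 4 other genes and 257 genes for the interaction. Without WT_Oil 1 and WT_CCL4 5, chosen after seeing the data, it was 2229 genes in wild type, 2 members, 2 other genes and 224 genes in the knockout, 1 member and 3 other genes after oil, 10 other genes and 960 genes after CCl4, and 1 member, 1 other gene and 321 genes for the interaction. The cause was not tested.

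Signs turned only in values that had not been called. For Cyp26b1 in wild type after CCl4 the log2 fold change was 0.051 (upper quartile), 0.067 (stricter filter) and 0.016 (only the groups compared), and -0.24 to 0.20 with 1 library left out. For Aldh1a1 the interaction was -0.021 (upper quartile), -0.041 (stricter filter), -0.040 (limma-voom) and -0.062 (without KO_CCL4 24 and 25), and -0.13 to 0.23 with 1 library left out. Without KO_CCL4 24 and 25 Lrat was -0.22 for CCl4 in the knockout and -0.39 between the genotypes after CCl4, where Rarb was -0.30. Without WT_Oil 1 and WT_CCL4 5 Rarb was -0.025 there, and Dhrs3 0.064 between the genotypes after oil. With 1 library left out Rarb ranged from -0.026 to 0.38 between the genotypes after CCl4 and from -0.31 to 0.095 for the interaction, Dhrs3 from -0.22 to 0.063 between the genotypes after oil and from -0.21 to 0.070 for CCl4 in wild type, and Aldh1a2 from -0.18 to 0.64 in wild type. For CCl4 in the knockout Rdh16 ranged from -0.17 to 0.54 and Aldh1a1 from -0.26 to 0.0071.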
